A study of Mus musculus with 12 samples.

Results

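The TCA cycle and the enzymes that feed it were followed through 31 genes in alveolar macrophages, the resident phagocytes of the lung airspace, from mice given bleomycin 14 days earlier. Bleomycin damages the lung and serves as a model of fibrosis. The 31 genes are a list drawn up by the enzymes' textbook roles. It covers the pyruvate dehydrogenase complex, the cycle itself, malic enzymes, aminotransferases, glutamate dehydrogenase and 2 carriers. The list was chosen with earlier results of these data known, so comparisons of it with all genes are descriptions only. All 31 were among the 26855 genes of the deposited table, and 30 were among the 12625 with enough reads to test. Size filtration split the lavage cells into fractions with many or few border-associated alveolar macrophages, and cells were then sorted on side scatter and on BODIPY, a lipid stain. The 12 libraries carry the titles UPBIG, UPSMALL and DOWN, with 4 in each group. The labels do not tie a title to a filter fraction or a sorting gate, so the titles serve as names here. All 3 groups come from bleomycin-treated mice and none of the libraries is labelled as untreated. The sources used here do not give the strain, age or sex, or whether cells of several mice were pooled. No label ties a replicate to its own mouse, so the p-values describe the spread among these 12 libraries, and that spread may be technical.

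In the cycle, acetyl-CoA made from pyruvate or fatty acids joins oxaloacetate as citrate, which is oxidised back to oxaloacetate in steps that feed electrons to the respiratory chain. Macrophages are known to draw citrate out of mitochondria for lipid synthesis, and to let succinate and itaconate rise, when they are activated. Enzymes outside the mitochondrion mirror several steps: cytosolic isocitrate dehydrogenase and malic enzyme supply NADPH, and cytosolic malate dehydrogenase and aminotransferase belong to the malate-aspartate shuttle.

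Promoters of 28 of the 31 genes were found in RefSeq's mouse annotation (GRCm38.p6). Idh3a, Me2 and Sdhc were not matched. The 250 bases before each start were searched on both strands for the motifs of NRF1 (GCGCA, then any base, then GCGC), a regulator of nuclear genes for mitochondrial proteins, and of the E-box (CACGTG). They were also searched for the motifs of the oestrogen-related receptors (TCAAGGTCA), of nuclear receptor dimers (AGGTCA, any base, AGGTCA) and of SREBP (TCACNCCAC). The NRF1 motif was in 3 of the 28 promoters (Sdha, Sdhd and Sucla2) and in 3.86% of all 27025 promoters. The E-box was in 2 (Pcx and Slc25a1) and in 6.02% of all promoters, and no promoter of the 28 held the other motifs, which were in 0.366%, 0.0407% and 1.03% of all. The promoters of 4 genes are shown because their transcripts gave the contrasts described below: Sdha and Sucla2, both with NRF1 motifs, were called in opposite directions between UPBIG and DOWN, Idh1 was called without holding any of these motifs, and Slc25a1 was lower in UPBIG than in UPSMALL. Sdha holds 3 NRF1 matches, at bases 98 to 89, 55 to 46 and 10 to 1 before the start, a number reached by 21 of the 27025 promoters (0.0777%). Sucla2 holds 1, at bases 17 to 8, and the E-box of Slc25a1 lies at bases 239 to 234. Capitals mark the matches, which do not overlap each other; a match is a description of the letters, not a site shown to be bound. The windows follow RefSeq's starts and are written 5′ to 3′ on the gene's strand, for Sdha at chr13:74350241-74350490 on the minus strand, for Sucla2 at chr14:73552536-73552785 on the plus strand, for Idh1 at chr1:65186480-65186729 on the minus strand and for Slc25a1 at chr16:17928220-17928469 on the minus strand.
Sdha: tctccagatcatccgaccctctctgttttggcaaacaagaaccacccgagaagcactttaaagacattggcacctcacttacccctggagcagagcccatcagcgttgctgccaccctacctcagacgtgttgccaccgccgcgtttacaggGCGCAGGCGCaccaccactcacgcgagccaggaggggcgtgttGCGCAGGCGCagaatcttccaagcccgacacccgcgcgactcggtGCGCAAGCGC
Sucla2: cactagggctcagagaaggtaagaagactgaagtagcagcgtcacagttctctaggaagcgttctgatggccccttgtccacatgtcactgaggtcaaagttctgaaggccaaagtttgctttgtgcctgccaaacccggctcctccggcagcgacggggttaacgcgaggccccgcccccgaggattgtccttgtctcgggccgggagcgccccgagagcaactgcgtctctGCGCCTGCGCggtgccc
Idh1: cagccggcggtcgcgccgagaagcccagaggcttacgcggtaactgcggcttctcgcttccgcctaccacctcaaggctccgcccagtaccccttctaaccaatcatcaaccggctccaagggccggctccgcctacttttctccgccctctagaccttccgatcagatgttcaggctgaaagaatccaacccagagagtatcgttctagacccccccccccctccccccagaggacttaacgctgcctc
Slc25a1: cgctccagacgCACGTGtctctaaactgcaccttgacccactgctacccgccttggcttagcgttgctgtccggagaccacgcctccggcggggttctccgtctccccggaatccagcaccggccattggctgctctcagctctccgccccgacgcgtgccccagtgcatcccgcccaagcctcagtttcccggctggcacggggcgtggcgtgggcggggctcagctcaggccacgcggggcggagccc

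Each library held 17109642 to 23282581 expected counts in total. UPBIG libraries needed the smallest TMM scaling factors, 0.858 to 0.896, against 0.992 to 1.17 in UPSMALL and 1.03 to 1.16 in DOWN, so values of UPBIG depend on how libraries are scaled. Lyz2, Ftl1 and Fth1 together took 26.5% to 29.1% of the counts in UPBIG, 15.5% to 23.8% in UPSMALL and 19.5% to 22.02% in DOWN, and UPSMALL replicate 4 held the lowest share. Transcripts of the mitochondrial genome took 4.05% to 5.19% of the counts in UPBIG, without overlap above 2.68% to 3.43% in UPSMALL and 2.49% to 3.15% in DOWN; the part of this share in the results was not tested. All 11 alveolar macrophage markers examined, from Siglecf to Itgax, had counts in every group, and their summed level was 13710 to 17860 CPM (reads of a gene scaled to a common library size) in UPBIG, 13160 to 16530 in UPSMALL and 9298 to 13590 in DOWN. Monocyte markers (6 of 6 detected) summed to 15.8 to 28.2 CPM in UPBIG, 66.6 to 119.8 in UPSMALL and 229 to 277 in DOWN. Dendritic cell markers (8 of 8 detected) summed to 7.32 to 13.7, 33.4 to 91.6 and 67.4 to 178 CPM, and T and NK cell markers (9 of 9) to 82.2 to 138, 35.6 to 75.4 and 72.5 to 183 CPM. Neutrophil markers (5 of 5) summed to 382 to 419, 162 to 219 and 129.9 to 174 CPM, while epithelial markers reached 229.9 CPM in 1 UPBIG library, 45.4 CPM at most in UPSMALL and 14.3 CPM at most in DOWN, where Sftpb was at 0. B cell markers summed to at most 17.5 CPM in any library, and fibroblast and erythroid markers to at most 0.294 CPM. In these bulk samples, fewer cells of a type and less RNA per cell cannot be told apart.

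Per kilobase of exon, averaged over the 12 libraries, the highest transcripts of the list were the small succinate dehydrogenase subunits Sdhd (222 CPM per kb) and Sdhb (166), followed by cytosolic malate dehydrogenase Mdh1 (107) and cytosolic isocitrate dehydrogenase Idh1 (83.95). Mitochondrial Mdh2 (54.9), Sdhc (39.1), Idh3g (39.1) and Glud1 (38.2) came next. Citrate synthase Cs was at 13.4, mitochondrial Idh2 at 12.5 and the pyruvate dehydrogenase genes between 2.55 (Pdhx) and 16.9 (Pdhb). The lowest were Me1 (0.503) and pyruvate carboxylase Pcx (0.0616). Levels of the 2 cytosolic enzymes Mdh1 and Idh1 per kilobase were thus above those of their mitochondrial partners in these cells. The same held for cytosolic Got1 (12.1) and mitochondrial Got2 (4.53), while cytosolic Me1 was below mitochondrial Me2 (5.58).

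**Figure D1:**
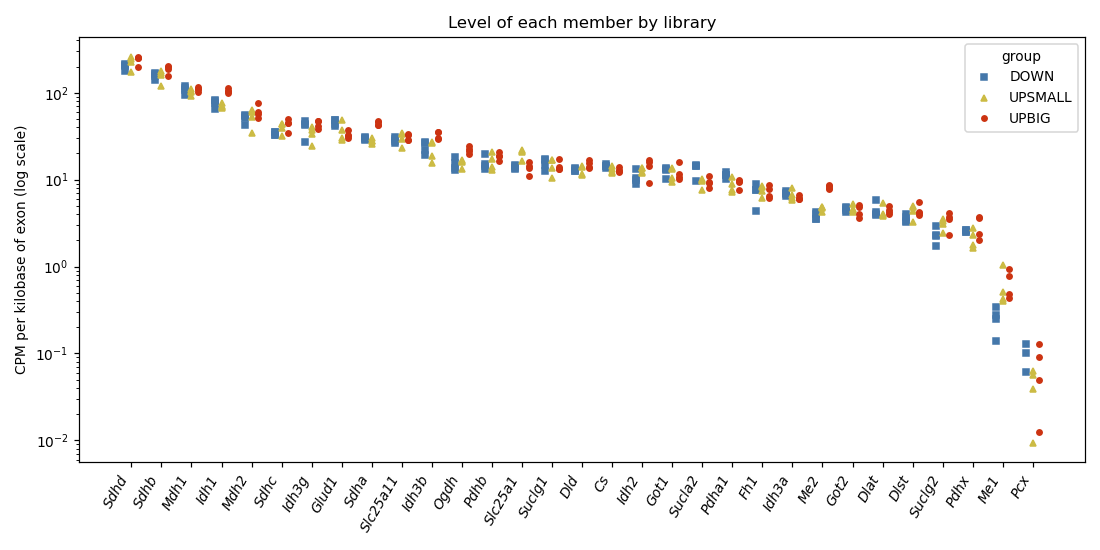
Level of each of the 31 genes in each of the 12 libraries, in CPM per kilobase of exon on a log axis, ordered by the mean over all libraries. Squares are DOWN, triangles UPSMALL and circles UPBIG, and the library of DOWN in which Pcx had 0 counts is not drawn; the genes span from Sdhd at 222 to Pcx at 0.0616.

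In the comparison of UPBIG with DOWN, calls went in both directions. Of 30 genes tested, 5 were called higher (Me2, Sdha, Ogdh, Idh1 and Sdhc) and 2 lower (Sucla2 and Glud1), so 7 of 30 (23.3%) passed an edgeR adjusted p of 0.05, against 17.5% of all genes tested. In the higher direction the background was 9.03% and in the lower 8.48%. With libraries scaled by their totals alone the split was 1 higher and 7 lower. The median log2 fold change of the 30 was 0.20, against -0.03 over all genes, and 20 of the 30 values were positive. At an unadjusted p under 0.05 there were 12. No role group had all of its genes called. In the same comparison 7 of 11 alveolar macrophage markers were called higher in UPBIG and 1 lower, and 1 of 6 tested epithelial markers higher. Of the others, 3 of 6 monocyte, 6 of 8 dendritic cell and 7 of 8 tested T and NK cell markers were called lower in UPBIG. The summed T and NK level overlapped between UPBIG and DOWN, so that sum does not stand for each marker. Of the tested neutrophil markers, 2 of 4 were called higher in UPBIG. The part of such cells in the results was not tested.

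UPBIG also differed from UPSMALL, with 5 genes called higher (Me2, Sdha, Idh1, Ogdh and Idh3b) and 1 lower (Slc25a1). This was 20% of the 30, against 5.7% of all genes, 3.22% higher and 2.49% lower. The median was 0.12, against -0.03 over all genes. With library totals it was 3 higher and 1 lower. This comparison and the one with DOWN share the UPBIG libraries. In it 5 of 11 alveolar macrophage markers and 2 of 4 tested neutrophil markers were called higher in UPBIG, and 1 of 11 alveolar macrophage, 2 of 6 monocyte and 2 of 8 dendritic cell markers lower, and their part in the results was not tested either. Over the 3 pairwise comparisons, 9 of the 30 genes were called in at least 1, against 18% of all genes, and 21 in none.

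Between UPSMALL and DOWN, edgeR called 0 of the 30, against 1.14% of all genes (0.594% higher and 0.547% lower). At an unadjusted p under 0.05 there were 6, while DESeq2 and limma-voom called 1 each, Slc25a1 with both. The median was -0.0026, near the -0.0033 of all genes, and 15 values were positive and 15 negative. In this comparison 4 of 11 alveolar macrophage markers were called higher in UPSMALL and 0 lower. Called lower in UPSMALL were 2 of 6 monocyte, 1 of 8 dendritic cell and 4 of 8 tested T and NK cell markers, and 0 of these were higher. The part of these cells in the results was not tested. Tested with edgeR for a difference anywhere among the 3 groups, 7 of the 30 were called, against 13.8% of all genes. They were Idh3b, Idh1, Ogdh, Sucla2, Sdha, Me2 and Slc25a1. Sdhc (adjusted p = 0.125) and Glud1 (adjusted p = 0.0579), called in UPBIG against DOWN, did not pass this joint test.

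**Figure D2:**
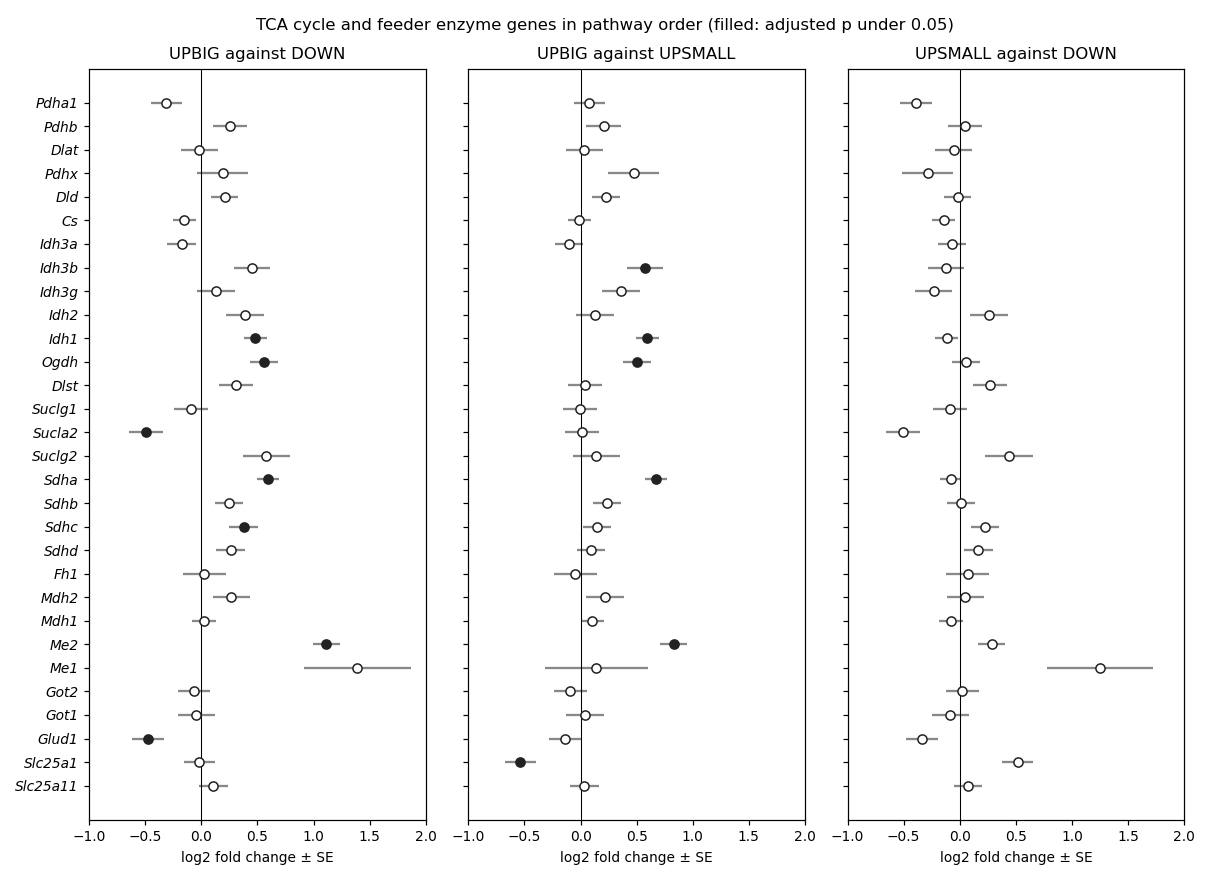
Log2 fold change ± SE of the 30 tested genes in pathway order, for UPBIG against DOWN, UPBIG against UPSMALL and UPSMALL against DOWN; filled points passed an adjusted p of 0.05. Filled points to the right in the first and second panels are Me2, Sdha, Ogdh and Idh1 in both, Sdhc in the first and Idh3b in the second, and no point is filled in the third.

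None of the 5 genes of the pyruvate dehydrogenase complex, which turns pyruvate into acetyl-CoA, was called in any comparison. The E1 alpha subunit Pdha1 had a log2 fold change of -0.31 ± 0.14 SE (adjusted p = 0.138) in UPBIG against DOWN and -0.39 ± 0.14 SE (adjusted p = 0.214) in UPSMALL against DOWN. Its UPBIG libraries, 28.4 to 36.7 CPM, lay below those of DOWN, 38.4 to 45.5 CPM. E1 beta Pdhb, the E2 core Dlat, the E3-binding protein Pdhx and the shared E3 Dld gave values from -0.020 (Dlat) to 0.25 (Pdhb) in that comparison. Dld, at 50.7 to 62.05 CPM in UPBIG and 46.3 to 50.4 in DOWN, did not overlap between these groups either but had an adjusted p of 0.266. Pdha1 shares 603 bases of exon with Map3k15 on the other strand, Got2 434 with Gm45760, Slc25a11 189 with Rnf167, Mdh1 52 with Wdpcp, Me1 30 with A330041J22Rik and Idh3b 5 with Nop56. Whether counting used strand is not given in the sources used here. Reads in these stretches cannot be told apart. Over all libraries Map3k15 held 248.7 counts (8614.3 for Pdha1), Gm45760 2 (5213 for Got2) and Rnf167 4701 (14970 for Slc25a11). Wdpcp held 333 (64868 for Mdh1), A330041J22Rik 0 (464 for Me1) and Nop56 4597.5 (20599 for Idh3b). Pcx, which carboxylates pyruvate to oxaloacetate and would open the other way into the cycle, was too low to test, with 21 counts over the 4 UPBIG libraries, 17 over UPSMALL and 29 over DOWN.

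Among the 6 genes from citrate synthesis to oxoglutarate, Idh1 was the clearest. Idh1 encodes the cytosolic and peroxisomal isocitrate dehydrogenase, which makes NADPH. Its level was 276, 294, 290.1 and 313 CPM in the UPBIG libraries, 188, 211, 193 and 185 in UPSMALL and 224, 229.8, 209 and 178 in DOWN. Every UPBIG library was above every other library, and UPSMALL and DOWN overlapped. The log2 fold change of UPBIG was 0.48 ± 0.10 SE (adjusted p = 0.00307) against DOWN and 0.59 ± 0.10 SE (adjusted p = 0.00127) against UPSMALL, and -0.12 ± 0.10 SE (adjusted p = 0.709) for UPSMALL against DOWN. With libraries scaled by their totals alone, the value against DOWN fell to 0.16 (adjusted p = 0.256), while the call against UPSMALL was kept.

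Mitochondrial NADP-dependent Idh2 was at 41.8, 43.2, 23.7 and 36.8 CPM in UPBIG, 30.8, 34.8, 32.03 and 35.3 in UPSMALL and 34.5, 25.7, 23.3 and 27.4 in DOWN. UPBIG replicate 3 was low, the groups overlapped, and UPBIG against DOWN gave 0.39 ± 0.17 SE (adjusted p = 0.13). Without UPBIG replicate 3 the value was 0.55 with an adjusted p of 0.0161.

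Idh3b is a regulatory subunit of the NAD-dependent isocitrate dehydrogenase, the form that works in the cycle proper. It was at 103, 121, 100.5 and 119.7 CPM in UPBIG, 64.4, 89.4, 92.4 and 53.03 in UPSMALL and 93.3, 91.04, 75.1 and 65.7 in DOWN. All UPBIG libraries were above all others. UPBIG against UPSMALL gave 0.57 ± 0.16 SE (adjusted p = 0.043), and UPBIG against DOWN 0.45 ± 0.16 SE (adjusted p = 0.061), which misses the threshold. The call against UPSMALL was lost without any of the UPBIG replicates 1 to 4 or UPSMALL replicates 1 or 4 (adjusted p 0.051 to 0.127) and with library totals (0.31, adjusted p = 0.174). The value against DOWN passed with DESeq2 and limma-voom, among other settings. The catalytic subunit Idh3a gave -0.18 ± 0.13 SE (adjusted p = 0.392) against DOWN and -0.11 ± 0.13 SE (adjusted p = 0.747) against UPSMALL, and the other regulatory subunit Idh3g gave 0.13 ± 0.17 SE (adjusted p = 0.669) and 0.36 ± 0.17 SE (adjusted p = 0.261). Cs, which opens the cycle, gave -0.15 ± 0.10 SE (adjusted p = 0.357) and -0.011 ± 0.10 SE (adjusted p = 0.974).

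From oxoglutarate to succinate, 1 gene was called higher and 1 lower in UPBIG than in DOWN. Ogdh, the E1 subunit of the oxoglutarate dehydrogenase complex, was at 107, 135, 122 and 116 CPM in UPBIG, 89.2, 86.7, 71.9 and 91.8 in UPSMALL and 98.2, 85.1, 74.03 and 69.5 in DOWN. The lowest UPBIG library was above the highest of the other groups. UPBIG exceeded DOWN by a log2 fold change of 0.56 ± 0.13 SE (adjusted p = 0.00408) and UPSMALL by 0.50 ± 0.13 SE (adjusted p = 0.0212). The call against UPSMALL was lost without UPBIG replicate 2 or UPSMALL replicate 3 (adjusted p 0.0794 to 0.0834), and both calls were lost with library totals (0.24 and 0.22, adjusted p = 0.194 and 0.276). Dlst, the E2 core of the same complex, gave 0.31 ± 0.15 SE (adjusted p = 0.172) against DOWN and 0.041 ± 0.15 SE (adjusted p = 0.932) against UPSMALL. As a description, the log2 ratio of Ogdh to Dlst per kilobase was 2.31 ± 0.32 in UPBIG, 1.85 ± 0.39 in UPSMALL and 2.05 ± 0.16 in DOWN (SD, n = 4).

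Succinyl-CoA synthetase pairs the shared alpha subunit Suclg1 with a beta subunit that makes ATP (Sucla2) or GTP (Suclg2). Sucla2 was at 32.1, 36.9, 37.6 and 43.6 CPM in UPBIG, 30.3, 40.6, 38.7 and 39.3 in UPSMALL and 57.1, 56.8, 59.1 and 38.4 in DOWN. DOWN replicates 1 to 3 were high and replicate 4 lay within the range of the other groups. UPBIG against DOWN gave -0.49 ± 0.15 SE (adjusted p = 0.0282), UPSMALL against DOWN -0.51 ± 0.15 SE (adjusted p = 0.112) and UPBIG against UPSMALL 0.012 ± 0.15 SE (adjusted p = 0.98). The call was lost without UPBIG replicate 1, 2 or 3 or DOWN replicate 1, 2 or 3 (adjusted p 0.0535 to 0.0957). Without DOWN replicate 4, UPSMALL against DOWN reached -0.62 with an adjusted p of 0.0373.

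Suclg2 ran the other way, at 17.3, 16.3, 10.7 and 19.3 CPM in UPBIG, 11.4, 14.4, 16.2 and 15.6 in UPSMALL and 10.3, 10.8, 13.6 and 7.87 in DOWN. The groups overlapped and UPBIG against DOWN gave 0.58 ± 0.21 SE (adjusted p = 0.0654), which passed with DESeq2 and, with edgeR, without UPBIG replicate 3 or DOWN replicate 3 (0.73 in each case, adjusted p 0.0191 to 0.0343). Suclg1 gave -0.094 ± 0.15 SE (adjusted p = 0.745) against DOWN and -0.0039 ± 0.15 SE (adjusted p = 0.994) for UPBIG against UPSMALL.

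Within a library, the log2 ratio of Sucla2 to Suclg2 counts does not depend on library scaling. It was 2.32 ± 0.16 in DOWN, 1.37 ± 0.10 in UPSMALL and 1.26 ± 0.38 in UPBIG (SD, n = 4). All DOWN libraries (2.11 to 2.48) were above all UPSMALL (1.25 to 1.49) and UPBIG libraries (0.90 to 1.81). The difference was -1.05 for UPBIG and -0.94 for UPSMALL, each against DOWN, with a two-sided exact permutation p of 0.0286 in both cases. That is the smallest p that 4 libraries against 4 allow, and adjusted over the 15 partner tests it was 0.0714. UPBIG and UPSMALL differed by -0.11 (exact permutation p = 0.629, adjusted 0.735).

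Succinate dehydrogenase, which is also complex II of the respiratory chain, had 2 of its 4 subunits called higher in UPBIG than in DOWN. Sdha carries the flavin and the succinate site. It was at 175, 191, 177 and 193 CPM in UPBIG, 107, 115, 124 and 116 in UPSMALL and 126, 120.2, 117 and 124 in DOWN. The UPBIG libraries lay far above both other groups, which overlapped each other. The log2 fold change of UPBIG was 0.59 ± 0.096 SE (adjusted p = 0.000227) against DOWN and 0.67 ± 0.096 SE (adjusted p = 0.000151) against UPSMALL. With library totals alone the first was 0.27 (adjusted p = 0.0703), while the call against UPSMALL was kept in every setting tried.

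The membrane anchor Sdhc was at 164, 148, 113 and 147 CPM in UPBIG, 142, 143, 127 and 103 in UPSMALL and 105, 107, 114 and 114 in DOWN. UPBIG replicate 3 lay within the DOWN range, so the groups overlapped. UPBIG against DOWN gave 0.38 ± 0.13 SE (adjusted p = 0.0464), close to the threshold. The call was lost without UPBIG replicate 1, 2 or 4, UPSMALL replicate 3, or any DOWN replicate (adjusted p 0.0557 to 0.142), and with library totals the value was 0.05 (adjusted p = 0.774). The iron-sulfur subunit Sdhb and the other anchor Sdhd gave 0.25 ± 0.13 SE (adjusted p = 0.202) and 0.26 ± 0.13 SE (adjusted p = 0.177) against DOWN. The log2 ratio of Sdha to the mean of the other 3 subunits, per kilobase, was -1.80 ± 0.16 in UPBIG, -2.32 ± 0.28 in UPSMALL and -2.14 ± 0.12 in DOWN (SD, n = 4), given as a description.

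**Figure D3:**
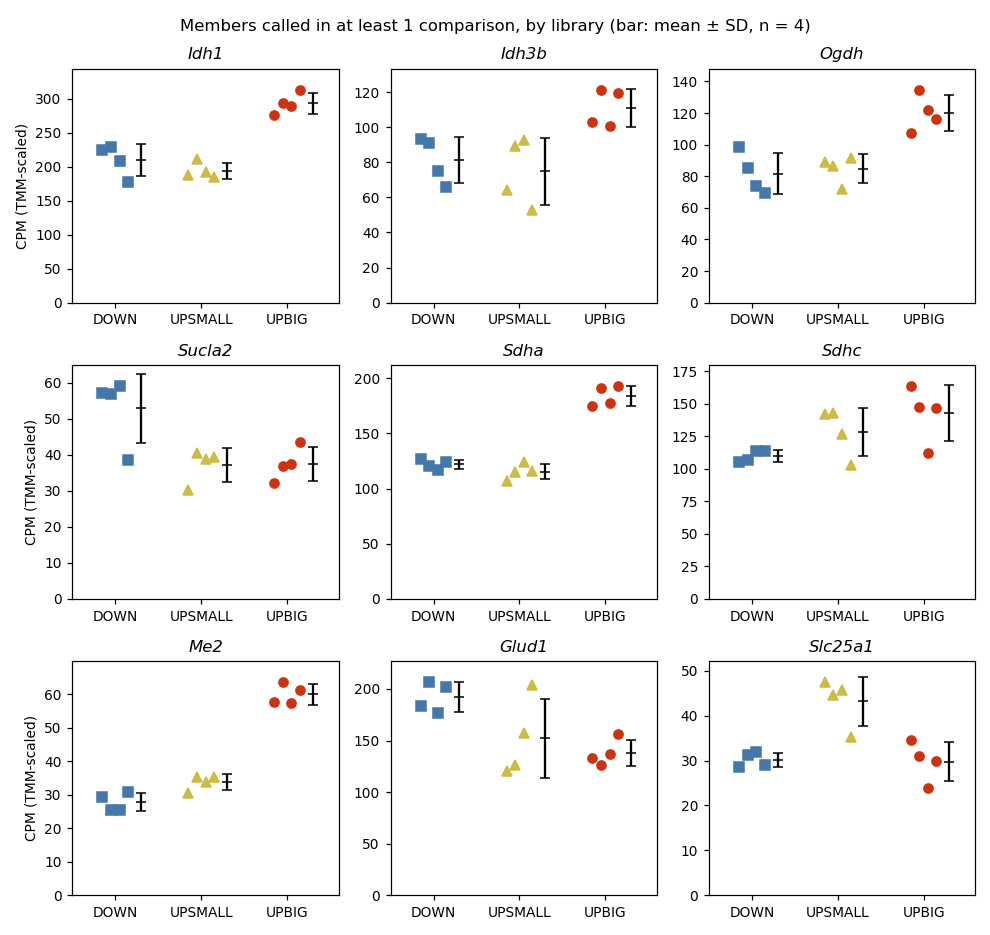
CPM in each library for the 9 genes called in at least 1 comparison, with the mean ± SD of 4 libraries beside each group; each vertical axis starts at 0. Idh1, Idh3b, Ogdh, Sdha and Me2 are above all other libraries in the 4 UPBIG libraries, DOWN replicate 4 stands below the other DOWN libraries for Sucla2, and UPSMALL is the high group for Slc25a1.

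The last steps of the cycle showed no calls. Fumarase Fh1 gave 0.025 ± 0.19 SE (adjusted p = 0.953) for UPBIG against DOWN. Mitochondrial Mdh2 was at 275, 200.2, 183 and 213 CPM in UPBIG, 226, 216, 186 and 121 in UPSMALL and 196, 182, 195 and 152 in DOWN, with UPSMALL replicate 4 lowest. Cytosolic Mdh1 was at 302, 281, 263 and 286 CPM in UPBIG, 270.0, 286, 263 and 233 in UPSMALL and 293, 275, 305 and 239.8 in DOWN. The groups overlapped for both genes, and UPBIG against DOWN gave 0.27 ± 0.17 SE (adjusted p = 0.311) for Mdh2 and 0.025 ± 0.11 SE (adjusted p = 0.913) for Mdh1. With library totals, Mdh1 turned to -0.29 and was called (adjusted p = 0.0313). The log2 ratio of Mdh1 to Mdh2 was 0.39 ± 0.18 in UPBIG and 0.62 ± 0.04 in DOWN (SD, n = 4), a difference of -0.23 (exact permutation p = 0.0286, adjusted 0.0714).

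Malic enzymes turn malate into pyruvate, and the mitochondrial form Me2 had the largest log2 fold change among the 9 called genes of the list. Me2 was at 57.6, 63.6, 57.3 and 61.4 CPM in UPBIG, 30.4, 35.4, 33.8 and 35.4 in UPSMALL and 29.4, 25.5, 25.4 and 30.7 in DOWN. The lowest UPBIG library was well above the highest of the other groups, and UPSMALL and DOWN overlapped narrowly, with the lowest UPSMALL and the highest DOWN library at 30.4 and 30.7 CPM. UPBIG exceeded DOWN by a log2 fold change of 1.11 ± 0.12 SE (adjusted p = 2.4e-06) and UPSMALL by 0.83 ± 0.12 SE (adjusted p = 0.000151). Both calls were kept in all 20 alternatives tried, with values of 0.79 to 1.18 and 0.55 to 0.86. UPSMALL against DOWN gave 0.28 ± 0.12 SE (adjusted p = 0.296).

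Cytosolic Me1, a source of NADPH for lipid synthesis, was low, at 1.68, 3.65, 2.99 and 1.84 CPM in UPBIG, 1.65, 1.55, 1.96 and 4.04 in UPSMALL and 0.952, 0.530, 1.06 and 1.32 in DOWN. All UPBIG and all UPSMALL libraries were above all DOWN libraries, and UPSMALL replicate 4 was the highest of the 12. UPBIG against DOWN gave 1.39 ± 0.48 SE (adjusted p = 0.0502) and UPSMALL against DOWN 1.25 ± 0.47 SE (adjusted p = 0.243). The first passed with DESeq2 and limma-voom and without UPBIG replicate 1, UPSMALL replicate 4 or DOWN replicate 4 (adjusted p 0.0408 to 0.0452). The log2 ratio of Me1 to Me2 was -4.87 ± 0.47 in DOWN, -3.98 ± 0.59 in UPSMALL and -4.62 ± 0.51 in UPBIG (SD, n = 4). UPSMALL was above DOWN by 0.90 (exact permutation p = 0.0286, adjusted 0.0714).

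Of the genes that tie the cycle to amino acids, glutamate dehydrogenase Glud1, which releases oxoglutarate from glutamate, was called lower in UPBIG than in DOWN. It was at 133, 126, 136 and 156 CPM in UPBIG, 120.5, 127, 157 and 204 in UPSMALL and 184, 206, 176 and 202 in DOWN. All UPBIG libraries were below all DOWN libraries, and UPSMALL spread over both ranges, with replicate 4 the highest. UPBIG against DOWN gave -0.48 ± 0.14 SE (adjusted p = 0.0238). The call was lost without UPBIG replicate 1 or 2 or DOWN replicate 2 or 4 (adjusted p 0.059 to 0.0819). UPSMALL against DOWN gave -0.34 ± 0.14 SE (adjusted p = 0.303), and -0.51 with an adjusted p of 0.0417 without UPSMALL replicate 4.

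The aminotransferases of the malate-aspartate shuttle showed no calls. Cytosolic Got1 was at 40.1, 27.02, 29.4 and 25.8 CPM in UPBIG, 24.01, 33.9, 26.4 and 34.6 in UPSMALL and 33.8, 32.5, 34.2 and 25.8 in DOWN, with UPBIG replicate 1 the highest. Mitochondrial Got2 was at 17.6, 24.3, 23.1 and 19.2 CPM in UPBIG, 25.6, 20.4, 22.1 and 21.7 in UPSMALL and 22.6, 21.9, 23.3 and 20.5 in DOWN. UPBIG against DOWN gave -0.046 ± 0.17 SE (adjusted p = 0.895) for Got1 and -0.066 ± 0.15 SE (adjusted p = 0.818) for Got2, and the groups overlapped for both.

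Of the carriers, Slc25a1, which exports citrate from mitochondria, was highest in UPSMALL. It was at 47.4, 44.5, 45.7 and 35.2 CPM in UPSMALL, 34.5, 31.02, 23.9 and 29.8 in UPBIG and 28.6, 31.1, 31.8 and 29.1 in DOWN. Every UPSMALL library was above every library of the other groups, which overlapped. UPBIG against UPSMALL gave -0.54 ± 0.14 SE (adjusted p = 0.0252), UPSMALL against DOWN 0.52 ± 0.14 SE (adjusted p = 0.0772) and UPBIG against DOWN -0.018 ± 0.14 SE (adjusted p = 0.954). The call was lost without UPBIG replicate 2, 3 or 4 or UPSMALL replicate 1, 2 or 3 (adjusted p 0.0554 to 0.0858), while UPSMALL against DOWN passed without UPSMALL replicate 4 (0.61, adjusted p = 0.0338). The oxoglutarate-malate carrier Slc25a11 gave 0.11 ± 0.13 SE (adjusted p = 0.64), 0.034 ± 0.13 SE (adjusted p = 0.935) and 0.072 ± 0.13 SE (adjusted p = 0.871) in UPBIG against DOWN, UPBIG against UPSMALL and UPSMALL against DOWN.

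Libraries of the groups did not overlap for 7 genes higher and 2 lower in UPBIG than in DOWN, against 11% and 10.3% of all genes, and for 5 higher and 1 lower in UPBIG than in UPSMALL, against 6.47% and 5.35%. In UPSMALL against DOWN these were 2 higher, Me1 and Slc25a1, and 0 lower, against 3.87% and 4.38%. No gene of the 30 was ordered through all 3 groups without overlap, against 0.903% of all genes falling from UPBIG over UPSMALL to DOWN and 0.578% rising. The mean of UPSMALL lay between the other means for 16 of the 31 genes, above both for 3 and below both for 12. A test of UPSMALL against the midpoint of UPBIG and DOWN on the log2 scale called 0 of the 30 with edgeR, against 0.246% of all genes (0.158% higher and 0.0871% lower), and 5 were at an unadjusted p under 0.05. The nearest were Slc25a1 at 0.53 ± 0.12 SE (adjusted p = 0.0684) and Sdha at -0.38 ± 0.084 SE (adjusted p = 0.0684), followed by Idh1 at -0.36 ± 0.091 SE (adjusted p = 0.138). DESeq2 called these 3 (adjusted p = 0.0107, 0.000918 and 0.0143) and limma-voom Slc25a1 and Sdha (0.0197 and 0.0366). With edgeR, Slc25a1 also passed with library totals (adjusted p = 0.0142), with no low-count filter (0.0115), with the filter of 5 CPM in 4 libraries (0.0456), and without UPBIG replicate 1 (0.0437) or UPSMALL replicate 4 (0.035), with values of 0.53 to 0.64. By value, Sdha and Idh1 in UPSMALL thus stood near DOWN rather than midway, and Slc25a1 stood above both other groups.

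Of the other partner ratios, Idh1 to Idh2 was 3.05 ± 0.41 in UPBIG, 2.55 ± 0.11 in UPSMALL and 2.93 ± 0.27 in DOWN (log2, SD, n = 4). All UPSMALL libraries (2.39 to 2.61) were below all others. The difference was 0.50 for UPBIG against UPSMALL and -0.38 for UPSMALL against DOWN, each with an exact permutation p of 0.0286 and an adjusted p of 0.0714. The ratio of Got1 to Got2 ranged from -0.09 to 1.19 over all libraries, with exact permutation p from 0.686 to 0.971 in the 3 comparisons. Of the 15 partner tests, 6 reached the smallest p and none passed after adjustment. With 6 at the smallest p, the adjusted p was 0.0714 however far apart the libraries lay. Missing the threshold therefore does not show that these ratios were alike.

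**Figure D4:**
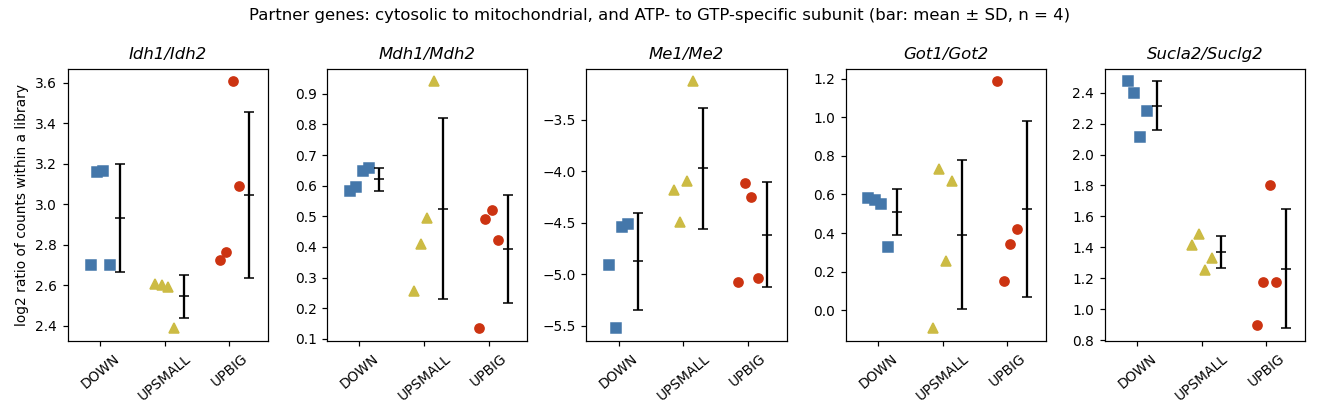
Log2 ratio of the counts of partner genes within each library, for 4 pairs of a cytosolic and a mitochondrial enzyme and for the ATP- and GTP-specific beta subunits of succinyl-CoA synthetase, with the mean ± SD of 4 libraries. The vertical axes differ and do not start at 0. The 4 DOWN libraries lie above all others for Sucla2/Suclg2, at 2.11 to 2.48, and the 4 UPSMALL libraries lie below all others for Idh1/Idh2.

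Scaling bore on UPBIG values as a whole. With library totals alone in place of TMM, the median log2 fold change of all genes was -0.36 in UPBIG against DOWN, -0.31 in UPBIG against UPSMALL and -0.05 in UPSMALL against DOWN. Calls over all genes then split into 518 higher and 3237 lower in UPBIG against DOWN, in place of 1140 and 1070, and into 189 and 1433 in UPBIG against UPSMALL, in place of 406 and 314. The list followed the shift, with a median of -0.12 and -0.17 in these comparisons, above the median of all genes in each. Me2 was then the only gene of the list called higher than DOWN, and 7 were called lower, namely Cs, Idh3a, Pdha1, Suclg1 and Mdh1 besides Sucla2 and Glud1. Me2, Sdha and Idh1 stayed higher than UPSMALL and Slc25a1 lower.

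**Figure D5:**
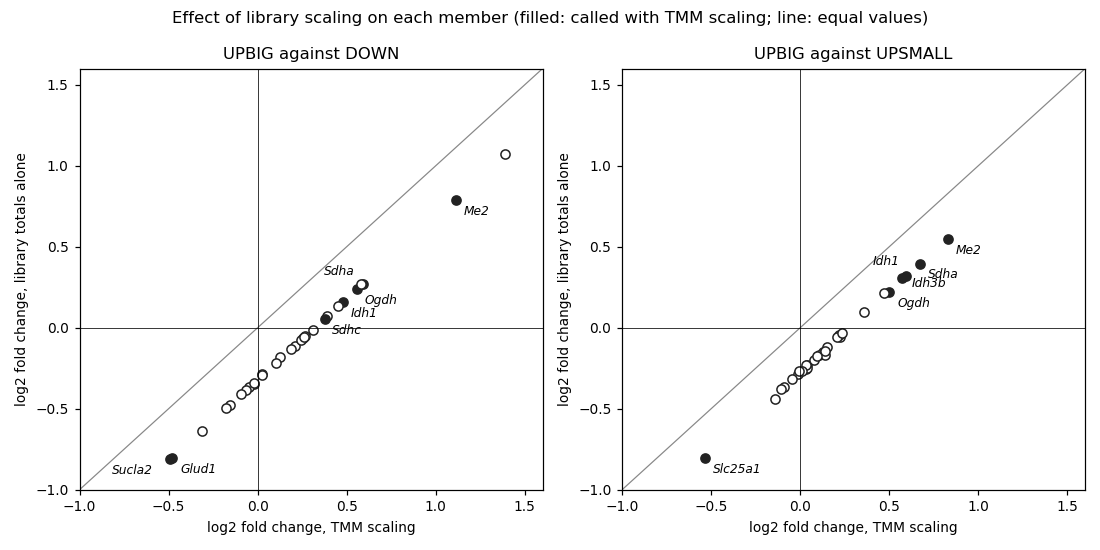
Log2 fold change of each of the 30 genes with TMM scaling (horizontal) and with library totals alone (vertical), for UPBIG against DOWN and UPBIG against UPSMALL; filled points were called with TMM scaling, and the grey line marks equal values. All points lie below the line by a similar amount, and Me2 stays well above 0 on both axes.

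Other genes around the cycle were taken from 5 lists with 55 genes, of which 54 had counts and 47 were tested. In UPBIG against DOWN, 7 were called higher and 3 lower, against 9.03% and 8.48% of all genes. In UPBIG against UPSMALL it was 3 and 2, against 3.22% and 2.49%, and in UPSMALL against DOWN 1 and 0, against 0.594% and 0.547%. None of 12 genes for assembly, lipoate and iron-sulfur cofactors was called in any comparison, nor any of 6 tested mitochondrial carriers. Acod1, which makes itaconate from aconitate, spread from 1.16 to 15.9 CPM within UPBIG and was not called.

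At the entry of pyruvate, the mitochondrial pyruvate carrier genes Mpc1 and Mpc2 were called higher in UPBIG than in DOWN, by 0.76 ± 0.15 SE (adjusted p = 0.00142) and 0.61 ± 0.12 SE (adjusted p = 0.00189). With library totals Mpc2 was no longer called (0.28, adjusted p = 0.116). Mpc1 was called higher than in UPSMALL too, at 0.65 ± 0.15 SE (adjusted p = 0.0125), except with library totals (0.39, adjusted p = 0.0535). Pdk4, a kinase that switches pyruvate dehydrogenase off, was at 14.8 ± 4.84 CPM in UPBIG, 1.38 ± 0.331 in UPSMALL and 0.0894 ± 0.116 in DOWN (SD, n = 4), and was called in all 3 comparisons, although with limma-voom UPSMALL against DOWN had an adjusted p of 0.0976. The phosphatase Pdp2, which switches the complex on, was called lower in UPBIG than in DOWN, at -0.83 ± 0.28 SE (adjusted p = 0.0464), and than in UPSMALL, at -1.02 ± 0.28 SE (adjusted p = 0.0361). The first of these calls was lost with no low-count filter (adjusted p = 0.0674), with DESeq2-style size factors (0.0507), in a fit of the 8 libraries compared (0.0913) and without any 1 of 11 libraries, DOWN replicate 4 being the exception, and the second without any 1 of the 8 libraries compared.

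Among routes in and out, glutamine synthetase Glul, propionyl-CoA carboxylase subunit Pccb and the ketone-using enzyme Oxct1 were called higher in UPBIG than in DOWN, at 0.83 ± 0.13 SE (adjusted p = 0.000217), 0.62 ± 0.15 SE (adjusted p = 0.00738) and 0.32 ± 0.11 SE (adjusted p = 0.0432). With library totals, Pccb and Oxct1 were no longer called (0.29 and -0.0013, adjusted p = 0.206 and 0.995). Oxct1 was also lost with no low-count filter (adjusted p = 0.0976) and without UPBIG replicate 2, 3 or 4, UPSMALL replicate 1 or 3, or DOWN replicate 1, 3 or 4 (adjusted p 0.0505 to 0.107). Glul was called higher in UPBIG than in UPSMALL as well, at 0.46 ± 0.13 SE (adjusted p = 0.0479), a call lost with library totals (0.18, adjusted p = 0.354), with limma-voom (adjusted p = 0.0652), in a fit of the 8 libraries compared (adjusted p = 0.0734) and without any 1 of 9 libraries, UPBIG replicates 3 and 4 and DOWN replicate 4 being the exceptions. The lactate dehydrogenase subunit Ldhb was lower in UPBIG, at 29.2 ± 7.14 CPM, than in UPSMALL (58.9 ± 11.02) and DOWN (69.8 ± 7.42), with log2 fold changes of -1.01 ± 0.17 SE (adjusted p = 0.000772) and -1.26 ± 0.17 SE (adjusted p = 3.13e-05). ATP-citrate lyase Acly, which splits exported citrate in the cytosol, was called lower in UPBIG than in DOWN, at -0.42 ± 0.12 SE (adjusted p = 0.0219), and this was lost without UPBIG replicate 1 or 2 or DOWN replicate 1 or 3 (adjusted p 0.0596 to 0.0875).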

How the data were processed

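The labels' protocols describe SMART-Seq HT cDNA from directly lysed lavage macrophages, so every value carries the differences in capture and amplification of that method. The authors deposited expected counts per gene and library. The submitters' processing notes name STAR, RSEM and mm10, and give no versions or annotation. Of the values, 13.8% are not whole, and they were rounded to whole numbers. Symbols came from an annotation of that assembly, which matched 26808 of 26855 identifiers.

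All 12 libraries entered 1 fit in edgeR 4.0.16 under R 4.3.3 (filterByExpr, TMM, robust quasi-likelihood F tests, no block). P-values were adjusted by Benjamini-Hochberg over 12625 genes, with calls at an adjusted p under 0.05. The size of a log2 fold change over √F gives its SE. CPM use TMM-scaled totals. Partner ratios (0.5 counts added) were compared by two-sided exact permutation tests over libraries, adjusted over 15 tests. Alternatives were library totals alone, size factors as in DESeq2, DESeq2 1.42.0 itself, limma-voom (limma 3.58.1), no filter on low counts, 5 CPM in 4 libraries as the filter, a replicate block, fits of the 8 libraries compared, and each library left out. The method was tested on simulated data with 100 changed genes per fold size. The changed genes were drawn from those above 5 CPM, so the rates do not cover genes as low as Me1. Equal numbers went up and down and no shift in library composition was simulated, so the scaling of UPBIG was not tested there. Fewer genes were changed than were called in UPBIG against DOWN (2210) or UPBIG against UPSMALL (720). The adjusted threshold was thus stricter than in these comparisons, where recovery may differ. Of 1.5-fold changes it recovered 25% in UPBIG against DOWN, 27% in UPBIG against UPSMALL and 21% in UPSMALL against DOWN, and of 2-fold changes 73%, 73% and 75% (fits of 12388, 12388 and 12399 genes), so changes of the smaller size can be missed.

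Genes called in a pairwise comparison and the partner genes are given in every library, the others by ranges and counts, and called genes of the other pathway lists may be named; 1 gene counted there is not reported here. The members and lists were chosen with earlier results of these data known. Precision rests on the library totals of 17109642 to 23282581 and on the spread among the libraries of a group.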

Additional observations from a re-analysis of the deposited data

Results flagged for a closer look

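Of 108 groups of 4 libraries examined (gene levels and partner ratios), 5 held a library that stood far from the other 3, and chance alone marks about 1 group in 20. UPSMALL replicate 4 accounted for 3 of them. It was highest for the pyruvate dehydrogenase E2 gene Dlat, at 26.41 CPM against 18.7 to 19.9 in the other UPSMALL libraries. It was also highest for Me1, at 4.04 CPM against 1.55 to 1.96. Its log2 ratio of Idh1 to Idh2 was lowest, at 2.388 against 2.59 to 2.61. DOWN replicate 4 accounted for the other 2. Its Sucla2 level was 38.43 CPM against 56.8 to 59.1 in the other DOWN libraries, and its log2 ratio of Got1 to Got2 was 0.3302 against 0.55 to 0.58. Over the whole table, UPSMALL replicate 4 had the largest TMM factor (1.17) and the most genes detected (17612) of all libraries. Squared count differences, relative to counting noise, averaged 102.4 to 152.8 per gene in UPSMALL pairs with replicate 4. Other UPSMALL pairs gave 40.1 to 45.25. The cause was not tested.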

How the results depend on the processing

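Me2 kept its calls under all alternatives, and so did Idh1 and Sdha against UPSMALL. Library totals alone in place of TMM moved the calls most in the 2 comparisons with UPBIG, whose values it shifts down. All genes called went to 3755 in UPBIG against DOWN and 1622 in UPBIG against UPSMALL, and genes of the list to 1 higher and 7 lower, and to 3 higher. The log2 fold changes that turned sign with it were, for UPBIG against DOWN Pdhb -0.064, Pdhx -0.13, Dld -0.11, Idh3g -0.18, Dlst -0.013, Sdhb -0.073, Sdhd -0.059, Fh1 -0.28, Mdh2 -0.051, Mdh1 -0.29 and Slc25a11 -0.22, for UPBIG against UPSMALL Pdha1 -0.20, Pdhb -0.060, Dlat -0.26, Dld -0.057, Idh2 -0.15, Dlst -0.23, Sucla2 -0.27, Suclg2 -0.14, Sdhb -0.030, Sdhc -0.12, Sdhd -0.17, Mdh2 -0.042, Mdh1 -0.17, Me1 -0.17, Got1 -0.25 and Slc25a11 -0.23, for UPSMALL against DOWN Pdhb -0.0045, Sdhb -0.043, Mdh2 -0.0083 and Got2 -0.017. With DESeq2-style size factors they were UPBIG against UPSMALL Cs 0.0028 and Suclg1 0.0097, with DESeq2 they were UPBIG against UPSMALL Cs 0.0031 and Suclg1 0.0098. With limma-voom they were UPBIG against DOWN Dlat 0.054 and Fh1 -0.015, UPBIG against UPSMALL Dlst -0.042 and Slc25a11 -0.022, and with the replicate block they were UPBIG against DOWN Dlat 0.0034, UPBIG against UPSMALL Suclg1 0.011. All of these were uncalled except Mdh1 in UPBIG against DOWN with library totals. Genes called over the whole table in UPSMALL against DOWN went from 144 to 393 with DESeq2, 460 without the low-count filter and 275 with the replicate block. Calls in the list went to 8 higher with DESeq2 in UPBIG against DOWN, and to 1 in UPSMALL against DOWN (Slc25a1) with DESeq2, limma-voom or no low-count filter. Off the midpoint, calls went to 1 with library totals, 3 with DESeq2 and 2 with limma-voom. They went to 1 without the filter, 1 with the filter of 5 CPM in 4 libraries and 2 with the replicate block. The causes of these changes in calls were not tested. No label ties the replicate numbers across groups, and not every same-numbered pair correlated above 0.1, so the numbers were not taken to pair the libraries: same-numbered libraries of different groups correlated at -0.03 to 0.15, 6 of 12 pairs were over 0.1, and 8 of 12 libraries correlated best with their own number, a hint of pairing from the data. The block changed no other direction. With it Idh3b passed in UPBIG against DOWN (adjusted p = 0.0322), as did Sdha (-0.38, adjusted p = 0.0318) and Slc25a1 (0.52, adjusted p = 0.0416) off the midpoint, and Pdp2 in UPBIG against DOWN did not (adjusted p = 0.0697). With the block, partner ratios cannot go below an exact p of 0.125. With each library left out in turn, counts of genes of the list ranged as follows. In UPBIG against DOWN, 4 to 7 were called higher and 0 to 2 lower. In UPBIG against UPSMALL, 3 to 5 were called higher and 0 to 1 lower. In UPSMALL against DOWN, 0 to 1 were called higher and 0 to 1 lower. Off the midpoint, 0 to 1 were called. For any difference among the groups, 4 to 9 were called, and these leave-out counts were added after seeing the data. Over the whole table, 58 to 179 genes were called in UPSMALL against DOWN. All genes called in UPSMALL against DOWN were 58 without UPSMALL replicate 1, 65 without DOWN replicate 3, 75 without DOWN replicate 1 and 85 without UPSMALL replicate 3 or DOWN replicate 2. Uncalled log2 fold changes that changed sign when a library was left out ranged, in UPBIG against DOWN Dlat -0.076 to 0.14, Fh1 -0.14 to 0.17, Mdh1 -0.025 to 0.082, Got2 -0.14 to 0.014, Got1 -0.20 to 0.029, Slc25a1 -0.094 to 0.077 and Idh3g -0.0038 to 0.22, in UPBIG against UPSMALL Cs -0.046 to 0.042, Dlst -0.074 to 0.11, Suclg1 -0.13 to 0.081, Got1 -0.12 to 0.13, Slc25a11 -0.068 to 0.10, Me1 -0.084 to 0.57, Dlat -0.024 to 0.17, Fh1 -0.14 to 0.027, Sucla2 -0.074 to 0.081, Sdhd -0.0037 to 0.18 and Glud1 -0.24 to 0.042, in UPSMALL against DOWN Dld -0.073 to 0.047, Sdhb -0.053 to 0.13, Mdh2 -0.048 to 0.22, Got2 -0.039 to 0.068, Got1 -0.16 to 0.0092, Pdhb -0.086 to 0.19, Dlat -0.17 to 0.11, Idh3b -0.24 to 0.021, Suclg1 -0.17 to 0.046, Ogdh -0.0032 to 0.16 and Fh1 -0.093 to 0.21. Partner ratio differences that did so ranged, in UPBIG against DOWN Got1/Got2 -0.20 to 0.14 and Idh1/Idh2 -0.072 to 0.22, in UPBIG against UPSMALL Got1/Got2 -0.086 to 0.26, Sucla2/Suclg2 -0.29 to 0.013 and Mdh1/Mdh2 -0.22 to 0.0057, in UPSMALL against DOWN Got1/Got2 -0.23 to 0.046. With 3 libraries against 4 the exact test has few possible splits, so nothing is concluded from its p-values there. Depth limits Pcx and Me1 most.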
